A study of Mus musculus with 6 samples.

Results

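The comparison described here is that of histone H3 trimethylated at lysine 79 (H3K79me3) between cells with MLL-AF9 D544R and cells with MLL-AF9 WT. It was taken by genotype and mark, and uses 2 of the 6 ChIP-seq libraries of the series, 1 library a side. Primary hematopoietic progenitor cells of mouse bone marrow carried the leukemia fusion MLL-AF9, delivered by a retrovirus, either unchanged (WT) or with 1 of 2 exchanges in its AF9 portion, D544R (aspartate to arginine) or D546R (the same exchange at a nearby aspartate). All groups carry the fusion, so no library shows cells without it. The Diagenode antibody was used for H3K79me3 and Abcam ab3594 for H3K79me2, giving 1 library per mark and genotype (2 marks, 3 genotypes), and the labels name no further cultures, clones or animals behind a library. The question the series asks with the exchanges is how the degree of DOT1L recruitment relates to H3K79 methylation at the fusion's target genes. Statements below rest on the 4925 of 24012 genes (20.5%) whose normalised counts averaged 300 or more over the 3 H3K79me3 libraries.

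DOT1L is the enzyme that places methyl groups on lysine 79 of histone H3, and the mark lies over the bodies of transcribed genes. AF9 binds DOT1L directly, so the fusion brings the enzyme to genes bound by the MLL portion. The HoxA genes and Meis1 are the best known of these genes in leukemia, and mono-, di- and trimethylation of the residue are steps by the same enzyme.

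In D544R cells, H3K79me3 was slightly lower over the most densely marked genes and slightly higher over sparsely marked ones, the latter only on some scalings, while H3K79me2 differed little over the same genes. Few single genes differed 2-fold. Meis1 and Cdk6 were among the densely marked genes with small differences, Jmjd1c and Zeb2 among those with larger ones, Pbx3 was 2-fold higher, and the HoxA genes were not lower as a group. With 1 library a side no test between genotypes can be made and the spread between cultures is unknown. Intervals below cover counting error only.

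Each region counts reads over a whole gene, exons, introns and UTRs together, with 2 kb added at the end of lower coordinate, where a plus-strand gene starts. The promoters of 4 genes whose values stand for the main patterns are shown first. On the plus strand the bases just before a gene's start lie inside such a region. Jmjd1c and Ube3a were among the densely marked genes with lower H3K79me3 in D544R, Cdk6 was densely marked with a small difference, and Cntnap2 is a long gene of the nervous system with little mark. Each sequence holds the 250 bases before the transcription start in RefSeq on GRCm38.p6, plus strand, 5′ to 3′, with every CG dinucleotide in capitals. Where the RefSeq table lists 2 starts (Jmjd1c and Cntnap2), the start with more CG is shown. The counts themselves are on mm9, so these coordinates are not those of the counted regions.
Jmjd1c, chr10:67126838-67127087: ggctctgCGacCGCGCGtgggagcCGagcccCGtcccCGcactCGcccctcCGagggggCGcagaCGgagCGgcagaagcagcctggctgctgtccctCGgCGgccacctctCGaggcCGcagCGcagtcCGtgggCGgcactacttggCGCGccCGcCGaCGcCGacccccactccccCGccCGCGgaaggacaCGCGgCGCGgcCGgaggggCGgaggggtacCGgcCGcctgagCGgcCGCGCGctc
Ube3a, chr7:59228500-59228749: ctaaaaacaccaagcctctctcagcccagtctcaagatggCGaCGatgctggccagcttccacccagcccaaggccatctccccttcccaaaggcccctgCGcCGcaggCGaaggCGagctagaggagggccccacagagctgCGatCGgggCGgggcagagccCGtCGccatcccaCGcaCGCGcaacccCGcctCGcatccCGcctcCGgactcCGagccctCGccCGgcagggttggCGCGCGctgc
Cdk6, chr5:3343643-3343892: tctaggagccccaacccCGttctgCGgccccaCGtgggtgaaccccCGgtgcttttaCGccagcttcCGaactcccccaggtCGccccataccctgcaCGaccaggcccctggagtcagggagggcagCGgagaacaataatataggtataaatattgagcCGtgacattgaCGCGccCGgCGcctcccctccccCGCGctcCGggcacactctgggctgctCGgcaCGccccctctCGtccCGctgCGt
Cntnap2, chr6:45059811-45060060: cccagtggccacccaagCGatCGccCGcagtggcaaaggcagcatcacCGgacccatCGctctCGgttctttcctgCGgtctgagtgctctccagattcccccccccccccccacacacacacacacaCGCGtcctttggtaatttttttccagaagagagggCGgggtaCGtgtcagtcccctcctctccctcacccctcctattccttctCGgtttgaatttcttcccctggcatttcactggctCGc
The Jmjd1c promoter held 40 CG, that of Ube3a 24, that of Cdk6 22 and that of Cntnap2 13. Promoters of other densely marked genes, not shown, held counts near that of Cntnap2, 13 for Meis1 and 14 for Zeb2 (at 1 of its 4 listed starts). CG was searched as the letters CG, which read the same on both strands and overlap no other motif searched. At least 1 CG was held by 92.1% of the 32851 promoter stretches of this length in the RefSeq table, with a median of 6 and quartiles of 2 and 16. All 4 sequences shown lay above the median, and only 78.4% of the genes at a mean of 300 or more had a promoter in the table, so no comparison of CG between groups of genes was made.

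The WT library held 5859821 counts, the D544R library 5207395 and the D546R library, which enters only the size factors and values set beside, 6652571. Many regions were empty (1063 in WT, 983 in D544R and 2203 in D546R). From the short regions without a count, each independent DNA fragment was estimated to have been counted 9.73 times in WT and 8.12 times in D544R. Intervals printed here therefore divide the counts by these numbers and are called fragment intervals. The estimate takes all short regions as equally dense per kb, so differences in density between genes raise it and widen the intervals. In the H3K79me2 libraries of WT and D544R the same estimate was 4.05 and 3.26. Markers of the labelled cell type were the more densely marked ones in the WT H3K79me3 library. Genes of granulocyte and monocyte progenitors had 9.92 normalised counts per kb and stem and progenitor genes 8.97, against 6.33 for mature myeloid, 4.97 for lymphoid, 4.76 for erythroid and megakaryocyte, 4.58 for mast cell and basophil genes and 4.37 for silent genes of other tissues.

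Over the 4925 genes the log2 ratio of D544R to WT in H3K79me3 had a median of -0.01 and quartiles of -0.25 and 0.22. Of these genes 2512 lay below 0 and 2413 above, and 90.2% were within 1.5-fold of WT. The SD of the ratio across genes was 0.36, against 0.17 for H3K79me2 in the same genes and 0.53 for D546R against WT in H3K79me3, which shares the WT library. The spread narrowed with the count. It was 0.42 for the 1922 genes with a mean of 300 to 500, 0.35 for the 1756 genes up to 1000, 0.28 for the 888 genes up to 2000 and 0.22 for the 359 genes above. The median half-width of the fragment interval ran from 0.68 to 0.50, 0.35 and 0.24 over the same 4 bins. On the same 95% scale (the SD times the normal quantile) the spread across genes was 0.83, 0.69, 0.54 and 0.44, wider than the median counting error of a gene in each bin.

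**Figure D1:**
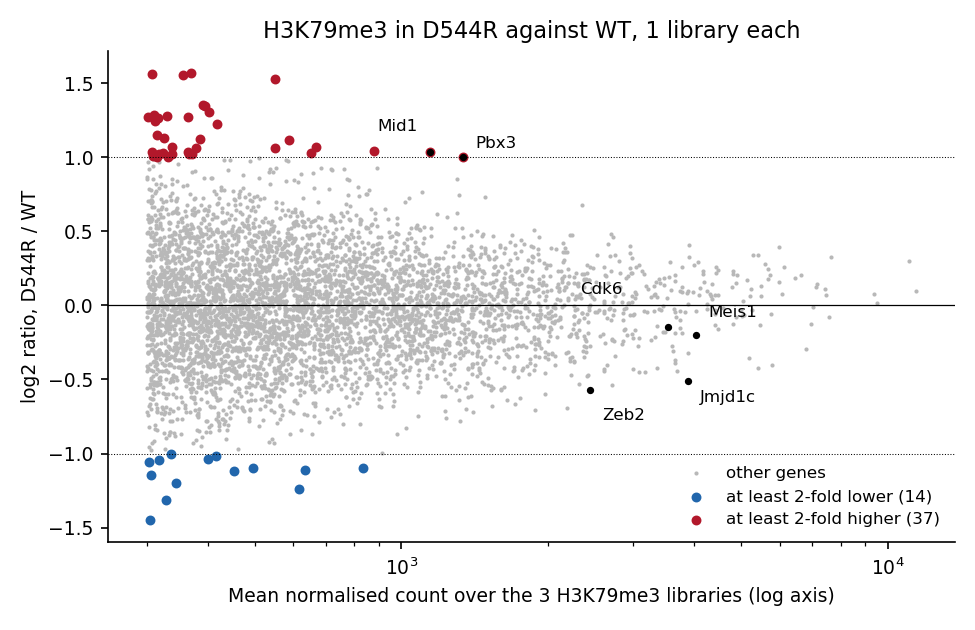
Each point is 1 of the 4925 genes at or above the minimum of 300, with the mean normalised count over the 3 H3K79me3 libraries on a log axis (x) and the log2 ratio of D544R to WT (y). Blue and red points are the 14 genes at least 2-fold lower and the 37 at least 2-fold higher, nearly all at the low-count end, and the spread narrows to the right.

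A gene counted as called at a 2-fold or larger ratio, given a 95% counting interval that left out a ratio of 1 and the minimum mean of 300. By this rule 14 genes were lower in D544R (0.284% of 4925) and 37 were higher (0.751%). All 14 and 37 also passed with fragment intervals. The median half-width of these was 0.68 at means of 300 to 500, below the log2 ratio of 1 that the rule requires, so passing them adds little. The split depended on the scaling. With the summed counts of silent genes of other tissues as the reference, 35 were lower and 16 higher, and with very long neuronal and muscle genes as the reference 32 were lower and 18 higher. These references moved the median ratio of all genes by -0.12 in both cases. For D546R against WT the same rule gave 249 lower (5.06%) and 84 higher (1.71%), or 247 lower (5.02%) with fragment intervals. For D544R against WT in H3K79me2 it gave 1 lower (0.0261% of 3838), Chl1, and 0 higher (0%). Of the 1247 genes with a mean of at least 1000, 0 were called lower in H3K79me3 (0%) and 2 higher (0.16%), Pbx3 and Mid1. The mean includes the D544R library, so a gene near the minimum that is lower there is removed more readily than one that is higher. It includes the D546R library as well, which can carry a gene past the minimum. Nfasc had normalised counts of 123 in WT, 298 in D544R and 483 in D546R, for a mean of 301.

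Papd7, a noncanonical poly(A) polymerase (NM_198600, mm9 chromosome 13, 69634837 to 69672742), had 358 counts in WT, 116 in D544R and 488 in D546R. Its D544R library was the low one of the 3, 2.73-fold below WT after scaling, with a log2 ratio of -1.45 (fragment interval -2.45 to -0.54). Psmb2, a subunit of the proteasome (NM_011970, chromosome 4, 126352887 to 126386959), had 513 counts in WT, 183 in D544R and 294 in D546R, for a D544R log2 ratio of -1.31 (-2.10 to -0.58). Tapt1 had 915, 343 and 613 counts, a log2 ratio of -1.24 (-1.80 to -0.71). Further genes were Gnas, the stimulatory G protein alpha subunit, at -1.20, Ddx4, an RNA helicase of germ cells, at -1.15, and Camk2b, a subunit of the calcium- and calmodulin-dependent kinase, at -1.12. Ctdspl2 followed at -1.11, Mta3, a subunit of the NuRD complex, at -1.10, and Gtf2a1, a subunit of the general factor TFIIA, at -1.06. In each of these 9 genes the normalised D544R count was the lowest of the 3 libraries.

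H3K79me2 gave no 2-fold difference in any of the 14. Such differences were rare in that mark, called lower in 0.0261% and higher in 0% of 3838 genes with an H3K79me2 mean of at least 300. Some of the 14 lay below that minimum, such as Ddx4 at 155. Over the 14, the H3K79me2 log2 ratios had a median of -0.05 and ran from -0.41 in Tapt1 to 0.71 in Camk2b, with 8 below 0. In H3K79me3 of D546R against the same WT library, 12 of the 14 had the same sign, with a median of -0.66. A high count in that shared library lowers both ratios, and the share of all 4925 genes with the same sign was not computed. Of the 14, 2 were also called lower there, against 5.06% of all 4925 genes. Of the 14, 11 had a mean under 500. Regions of 4 overlapped another region, Camk2b and Ctdspl2 among the genes named, so their reads cannot be assigned to 1 gene. The median density of H3K79me2 in WT was 9.06 normalised counts per kb, against 3.48 over all 4925 genes.

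Loh12cr1, which encodes a subunit of the lysosome-associated BORC complex (NM_001170479, mm9 chromosome 6, 134587530 to 134661202), had 231 counts in WT, 609 in D544R and 207 in D546R. Its D544R library was the high one of the 3, 2.97-fold above WT, with a log2 ratio of 1.57 (fragment interval 0.89 to 2.30). Usp53, of the ubiquitin-specific protease family, had 164, 429 and 480 counts, a log2 ratio of 1.56 (0.75 to 2.44). Psd3, an exchange factor for ARF GTPases, had 273, 700 and 666 counts, a log2 ratio of 1.53 (0.90 to 2.20). In both genes the WT library was the low one. Dab2ip, a GTPase-activating protein for Ras, was at 1.36, Mroh8 at 1.34 and Abhd3 at 1.30. C6, a complement component, was at 1.29, Nfasc, the adhesion molecule neurofascin, at 1.27 and Ap1s3, a subunit of an adaptor complex of vesicle transport, at 1.27.

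**Figure D2:**
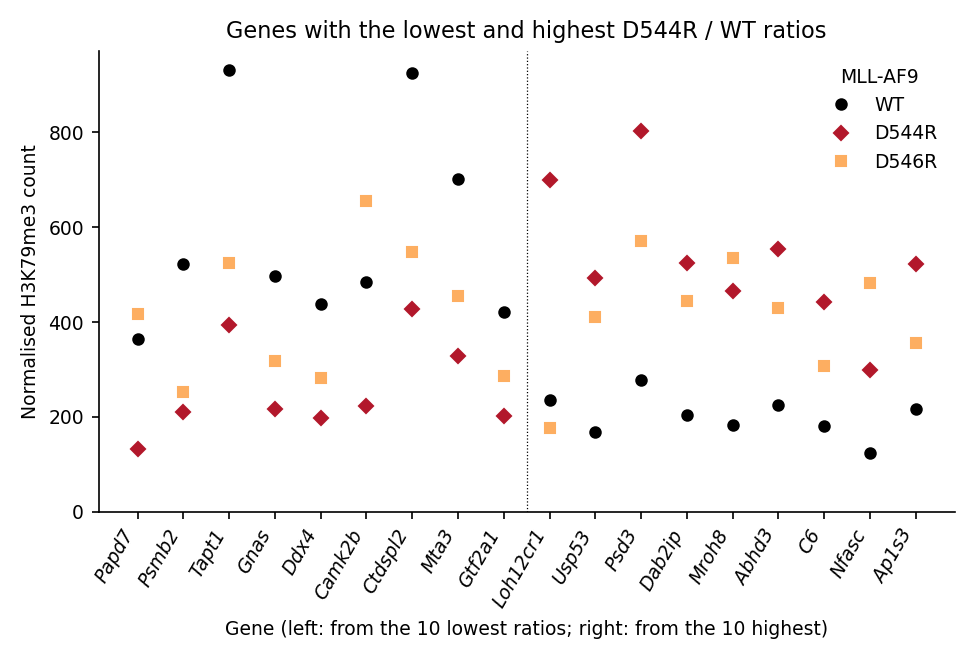
Normalised H3K79me3 counts (y) of 9 genes among the 10 lowest ratios (left of the dotted line) and 9 among the 10 highest (right), 1 point for each of the WT, D544R and D546R libraries. In the 9 genes at left D544R (red) is the lowest point, and in the 9 at right WT (black) lies below D544R, with Loh12cr1 reaching 609 raw counts in D544R against 231 in WT.

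Again H3K79me2 was within 2-fold in all 37, with a median log2 ratio of 0.03 and a range from -0.47 to 0.70. Over 3838 genes with an H3K79me2 mean of at least 300, 0.0261% were called lower and 0% higher. Some of the 37 lay below that minimum, such as Ugt3a1 at 135. In H3K79me3 of D546R against WT, 32 of the 37 had the same sign, with a median log2 ratio of 0.94. Here too the share of all genes with the same sign was not computed. Of the 37, 17 were also called higher there, against 1.71% of all 4925 genes. Both comparisons share the WT library, so a low WT count raises both ratios. WT counts of the 37 were low, from 121 to 922, and 29 had a mean under 500. Their median density of H3K79me2 in WT was 2.76 normalised counts per kb, below the 3.48 of all genes. Regions of 12 overlapped another, those of Mroh8 and Abhd3 among the genes named. One of the 37 was Rn45s, a copy of the ribosomal RNA repeat, named here after its values were seen. It had 512 counts in WT, 938 in D544R and 1221 in D546R, and since the repeat exists in many copies its counts say little of this locus.

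The difference between D544R and WT was ordered by how densely a gene is marked. The 4925 genes were split into 10 deciles of equal size by counts per kb in the WT H3K79me2 library, which is on neither side of the comparison. From the least dense decile upward, the median H3K79me3 log2 ratio was 0.08, 0.09, 0.07, 0.09, 0.06, 0.07, -0.03, -0.08, -0.22 and -0.27. It was thus level over the 6 least dense deciles and lower in each of the 4 densest. In the densest decile 416 of 493 genes (84.4%) were below 0, with quartiles of -0.44 and -0.10, against 37.5% below 0 in the least dense. Scaled to silent genes of other tissues, the medians of the least dense and the densest decile were -0.046 and -0.39, so the former changes sign with the scaling and the difference between them does not rest on it. The H3K79me2 median ratio of D544R to WT stayed between -0.07 and 0.03 over all 10 deciles, and was 0.01 in the densest. Unlike the H3K79me3 ratio, it shares its WT library, and so counting error, with the ranking. Across genes, Spearman's rho between the H3K79me3 ratio and WT H3K79me2 density was -0.31 over 4925 genes, which share their libraries and are not independent.

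Dense genes are also shorter, with a median region of 35.0 kb in the densest decile and 145 kb in the least dense. Length and density therefore move together here, and their parts in the pattern were not tested apart. Genes called higher were spread over the sparse end, with 3 to 7 in each of the 6 least dense deciles and 2, 2, 0 and 1 in the 4 densest. Genes called lower numbered 2, 5, 3 and 1 in the 4 densest and at most 1 in each of the others. With the 1247 genes of a mean of at least 1000, 114 of the 125 in the densest decile were below 0, with a median of -0.28 and a range from -0.75 to 0.37. No gene of that decile differed 2-fold, so the pattern is a small offset shared by many genes. D546R had a median of -0.52 in the densest decile of all 4925 genes, a value that shares the WT library with that of D544R.

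**Figure D3:**
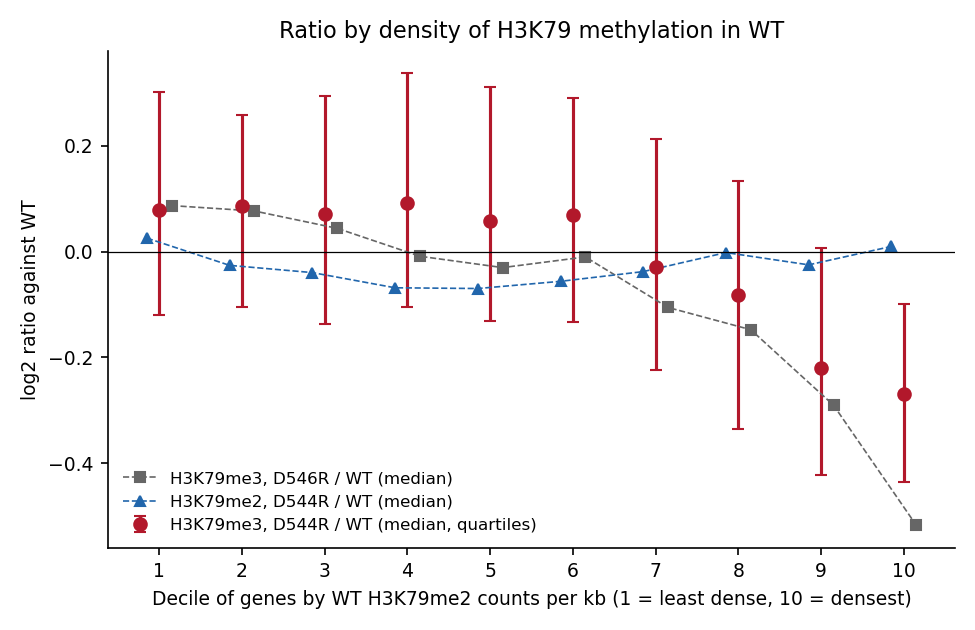
Median log2 ratio against WT (y) for 10 deciles of genes by WT H3K79me2 counts per kb (x), with quartiles as bars for D544R in H3K79me3 (red). The red medians run from 0.08 in the least dense decile to -0.27 in the densest, while those of H3K79me2 (blue) stay between -0.07 and 0.03 and those of D546R (grey) reach -0.52. The WT library that ranks the genes also enters the blue ratios.

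The same was seen in counts per kb, which need no size factor when 2 groups of genes are compared inside a library. Over the densest decile WT had 27.7 normalised H3K79me3 counts per kb, D544R 22.9 and D546R 17.4. Over 24 very long neuronal and muscle genes, silent in blood cells, WT had 4.25, D544R 4.61 and D546R 4.46. The quotient of the densest decile over these long genes was 6.51 in WT, 4.98 in D544R and 3.90 in D546R. In H3K79me2 the quotients were 13.2, 14.3 and 12.9. The contrast of D544R thus lay between those of the other genotypes in H3K79me3 and was the highest of the 3 in H3K79me2. With the least dense decile as divisor, WT, D544R and D546R gave 7.28, 5.60 and 4.39 in H3K79me3. In H3K79me2 that divisor gave 15.4, 15.5 and 14.8, so WT and D544R were nearly equal. The WT H3K79me2 library also sets the deciles. The densest decile held 11.4% of all counts in WT, 9.46% in D544R and 7.53% in D546R in H3K79me3, against 15.4%, 15.6% and 14.4% in H3K79me2. A change in the mark over the whole genome and a change in the background of an immunoprecipitation cannot be told apart with 1 library a side.

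**Figure D4:**
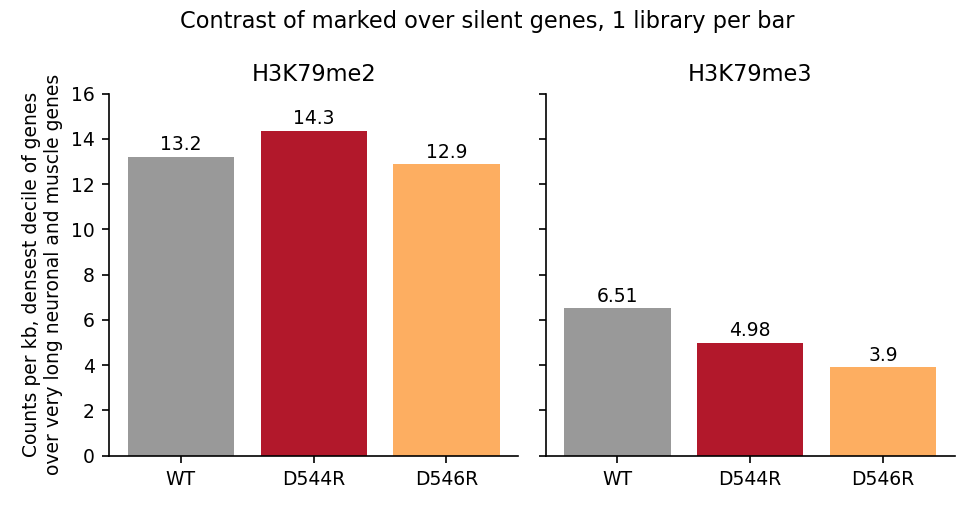
Counts per kb over the densest decile of genes divided by those over 24 very long neuronal and muscle genes (y), 1 bar per library, for H3K79me2 (left) and H3K79me3 (right). The H3K79me3 bars step down from 6.51 in WT to 4.98 in D544R and 3.90 in D546R, and the H3K79me2 bars lie between 12.9 and 14.3.

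The genes at the ends of the deep, dense group were looked up after their values were seen. Shfm1, which encodes a small subunit of the proteasome regulatory particle, had 1418 counts in WT and 750 in D544R (log2 ratio -0.75, interval -1.14 to -0.36), with -0.09 in H3K79me2. Ube3a, a ubiquitin ligase whose promoter is printed above, had 2934 counts in WT and 1596 in D544R (log2 ratio -0.71, -0.97 to -0.44), with -0.32 in H3K79me2. At the other end Nufip2 had 946 and 1083 counts, a log2 ratio of 0.37 (-0.02 to 0.76). D544R was the lower library in both of the first genes, and in Nufip2 the interval included no difference.

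Meis1, a homeobox partner of HOX proteins (NM_010789, mm9 chromosome 11, 18778431 to 18918972), had 5842 H3K79me3 counts in WT, 4525 in D544R and 1118 in D546R. The D544R library lay close under WT and far above D546R. Its D544R log2 ratio was -0.20 (fragment interval -0.37 to -0.03), with 0.21 in H3K79me2, and its D546R ratio against the same WT library was -2.64. Among the 125 densest genes of a mean of at least 1000, Meis1 ranked 79 from the lowest ratio, in the upper part of the group.

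Cdk6, a kinase of the G1 phase (chromosome 5, 3342312 to 3522225), had 4668 counts in WT, 3748 in D544R and 1832 in D546R, for a D544R log2 ratio of -0.14 (-0.33 to 0.04). It ranked 95 of 125. Tsc22d2 had 6649 and 5275 counts (log2 ratio -0.16) and ranked 90, and Mbnl1, a splicing regulator, had 8999 and 7310 (log2 ratio -0.13) and ranked 103. These 4 target genes thus had higher ratios than most genes of their density.

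Jmjd1c, a gene of the JmjC domain family (NM_207221, chromosome 10, 66588006 to 66719074), had 5791 counts in WT, 3605 in D544R and 1890 in D546R. Its log2 ratio was -0.51 (-0.69 to -0.33), 1.43-fold lower than WT, with 0.02 in H3K79me2. Zeb2, a zinc finger repressor of transcription (chromosome 2, 44837032 to 44965797), had 3691, 2203 and 1225 counts, a log2 ratio of -0.57 (-0.80 to -0.34). Zeb2 ranked 10 and Jmjd1c 19 of the 125, near the low end, and D544R lay between WT and D546R in both. The Zeb2 region overlaps 2 others.

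Of the other targets, Chd9, a chromatin remodeler, was at -0.45, Runx2, a transcription factor of the Runt family, at -0.37 and Mef2c, a MADS box transcription factor, at -0.36, each with a fragment interval below 0. Their H3K79me2 ratios were -0.33, 0.01 and -0.29. Myb, a transcription factor of progenitors, was at -0.43 with an interval from -1.02 to 0.16. The receptor gene Flt3 had 339 counts in WT and 171 in D544R, but a mean below 300. Runx1, another Runt factor, had 1603 counts in WT and 1696 in D544R (log2 ratio 0.25, -0.05 to 0.56). Eya1, a transcriptional coactivator, had 1434 and 1602, a log2 ratio of 0.33 (0.02 to 0.65), with 0.28 in H3K79me2.

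Pbx3, a homeobox cofactor of HOX and MEIS proteins (NM_016768, chromosome 2, 34024977 to 34227565), had 922 counts in WT, 1642 in D544R and 1391 in D546R. The WT library was the low one of the 3. The D544R log2 ratio was 1.00 (0.65 to 1.37), at the 2-fold limit, and H3K79me2 gave -0.04. Scaled to the silent genes, its log2 ratio was 0.88, below that limit. In density Pbx3 had 4.63 normalised counts per kb in WT, near the level of silent genes, and 9.30 in D544R. Bahcc1 also had a ratio above 0 among the targets, with 432 and 715 counts and a log2 ratio of 0.90 (0.36 to 1.45), and here H3K79me2 was higher too, at 0.82.

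Counting the 24 listed MLL fusion targets outside HoxA, 16 had a mean of at least 300, 11 were below 0 and 5 above, 0 were called lower and 1 (Pbx3) higher. Their median was -0.21, against -0.01 for all 4925 genes and -0.27 for the densest decile. Summed over all 24, WT had 49802 counts, D544R 38830 and D546R 24777, and the log2 ratio of sums for D544R was -0.19 (fragment interval -0.24 to -0.13). In H3K79me2 it was 0.02. The list was drawn up with earlier results of these data known, and its median is a description.

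**Figure D5:**
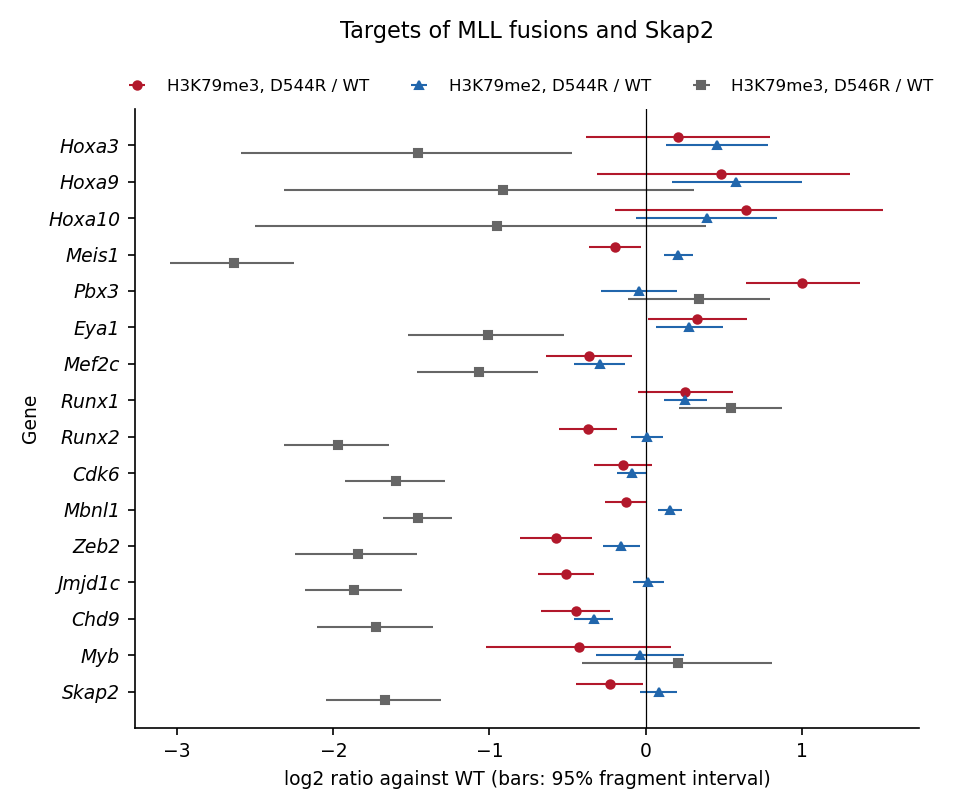
log2 ratios against WT (x) for MLL fusion targets and Skap2 (y) in H3K79me3 of D544R (red circles), H3K79me2 of D544R (blue triangles) and H3K79me3 of D546R (grey squares), with 95% fragment intervals as bars, 1 library a side. Red points run from -0.57 in Zeb2 to 1.00 in Pbx3, and grey ones reach -2.64 in Meis1.

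HoxA genes are short, and of 11 only Hoxa3 reached a mean of 300. Hoxa3 had 449 counts in WT, 460 in D544R and 194 in D546R, for a D544R log2 ratio of 0.21 (-0.38 to 0.80). Its region of 46.0 kb overlaps 5 others and contains that of Hoxa5, so its reads cannot be assigned to Hoxa3 alone. Hoxa9 had 227, 282 and 143 counts, Hoxa10 195, 271 and 120, and Hoxa7 125, 111 and 33. Their D544R log2 ratios were 0.48, 0.65 and 0.00, and all 3 intervals included 0. In these 4 genes D544R was near or above WT and D546R was the lowest library. Hoxa5, with 75, 39 and 72 counts, had its lowest library in D544R (log2 ratio -0.76, with an interval that includes 0). Summed over the 11 genes, WT had 1353 counts, D544R 1396 and D546R 743, a D544R log2 ratio of 0.22 (-0.11 to 0.55), with 0.47 in H3K79me2. Several HoxA regions overlap one another, so reads enter the sum more than once. The 10 flanking genes gave -0.08 for the log2 ratio of sums (-0.21 to 0.05). Of them Skap2, an adaptor protein gene beside the cluster, had 3683, 2787 and 1377 counts, a log2 ratio of -0.23 (-0.45 to -0.02).

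Chl1, a neural adhesion molecule gene, had 6301 H3K79me3 counts in WT, 4223 in D544R and 7090 in D546R, for a D544R log2 ratio of -0.41 (-0.57 to -0.24). Its H3K79me2 counts were 5922 in WT and 1653 in D544R (log2 ratio -1.37). It was the only gene of at least 300 called in H3K79me2, and its H3K79me3 was within 2-fold.

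Of the 10 genes of the DOT1L and fusion partner complex, 3 had a mean of at least 300. On the size factors used these 3 had log2 ratios above 0, beside 2413 of the 4925 genes. They were Mllt10 at 0.20 (AF10, a DOT1L cofactor), Kmt2a at 0.05 (MLL itself) and Bcor at 0.22 (a corepressor that binds AF9). Kmt2a was at -0.074 when scaled to the silent genes. The 7 genes with a mean below 300 were also above 0, but the share over the 4925 genes does not cover genes of so few counts. Dot1l had 188 counts in WT and 199 in D544R, and Mllt3, the AF9 gene, 157 and 199. Fragment intervals included 0 in Kmt2a (-0.53 to 0.63), Bcor (-0.17 to 0.61), Dot1l (-0.67 to 1.19) and Mllt3 (-0.45 to 1.52). Elongation factors had a median of -0.04 with 10 genes at 300 or more and 0.07 over all 19, from Ell2 at -0.68 to Cdc73, a PAF complex subunit, at 0.63.

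Among cell-type lists, stem and progenitor genes had a median of -0.38 over 7 genes, 4 below 0. Fli1 (2431 and 1659 counts, log2 ratio -0.38) and Etv6 (4173 and 2833, -0.39), ETS factors of progenitors, were densely marked, and the stem cell factor receptor Kit was at 0.49 (439 and 549). Adding genes down to a mean of 100 moved this median to 0.03. Mature myeloid genes had a median of 0.40 over 6 genes, 4 above 0, with the macrophage receptor Mrc1 at 0.93 (403 and 680 counts) and the integrin Itgam at -0.72 (458 and 247). That median was -0.05 among regions without overlap. Granulocyte and monocyte progenitor genes had 2 members at 300 or more, Spi1, which encodes PU.1, at -0.85 (371 and 182) and Csf2rb at 0.16. The fragment interval of Spi1 was -1.68 to -0.07, and its H3K79me2 ratio went the other way, at 0.57 (0.23 to 0.91). Erythroid and megakaryocyte genes had a median of 0.12 (4 genes), but -0.089 over all 18 and -0.29 among regions without overlap. Lymphoid genes had a median of 0.13 (4 genes), and the 1 mast cell and basophil gene that reached 300, Mitf, was at -0.27. A different mix of cells and a different level per cell cannot be told apart in bulk chromatin.

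Housekeeping genes had a median of -0.21 over 4 genes, from Polr2a, the large subunit of RNA polymerase II, at -0.96 to Hprt at 0.04. MYC and ribosome assembly genes had a median of -0.18 (4 genes), cell cycle genes -0.02 (5 genes), and cell cycle inhibitor and p53 genes 0.13 (2 genes), against -0.14 over all 18 of the latter. The 27 ribosomal protein genes all lay below 300, with a log2 ratio of sums of 0.05. Silent genes of other tissues had a median of 0.01 over the 5 genes at 300 or more and 0.40 over all 42, most with few counts, and a log2 ratio of sums of 0.12 (-0.01 to 0.26). The 24 very long neuronal and muscle genes all reached 300, with a median of 0.10, 18 above 0 and 0 called. Cntnap2, an adhesion molecule of axons, had 10206 counts in WT and 9690 in D544R (log2 ratio 0.10, interval -0.02 to 0.22), and Dmd, the dystrophin gene, 4549 and 5122 (0.34, 0.17 to 0.52). Scaled to the silent genes, the very long genes had a median of -0.02, so its sign depends on the scaling, whereas that of the densest decile was -0.39 and kept its sign.

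Across the 4925 genes the H3K79me3 and H3K79me2 ratios of D544R to WT, which share no library, had a Spearman's rho of 0.04 and a Pearson's r of 0.06. The rank of a gene by its ratio in one mark thus said little of its rank in the other.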

How the data were processed

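ChIP-seq of H3K79me3 and H3K79me2 was done on progenitors with MLL-AF9 WT, D544R or D546R, 1 library for each mark and genotype. The authors deposited unnormalised counts of reads over each gene. Per the file headers, a region spans the transcript plus 2 kb ahead of its start. Bowtie, bedtools, DESeq and mm9 are named in the submitters' processing notes, without roles or versions. Per the labels' protocols, chromatin was sheared to about 300 bp, and several sequencing runs went into each library. No source used here says how duplicate reads were treated. File starts count from 0 and are printed from 1. Of 3387 neighbouring pairs of genes on opposite strands, 3239 kept the RefSeq distance between ends and 0 differed by 2 kb, so the added 2 kb lies at the lower coordinate on both strands, and that of a minus-strand gene is at its end.

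Size factors were medians of ratios over the 3 H3K79me3 libraries (0.982, 0.872 and 1.17 for WT, D544R and D546R). The log2 ratio used a prior count of 0.5. Counting intervals were exact conditional Clopper-Pearson intervals at 95%. Reads per fragment were estimated from the empty share of 4591 autosomal regions under 5 kb, which treats every such region as reachable and of equal density per kb. Totals of 5207395 to 6652571 counts per H3K79me3 library set the precision. The calls and counting intervals were checked on simulated counts without repeated fragments, with changes only in genes well above the minimum. That check did not cover fragment intervals or changes in genes near the minimum. Genes just outside the minimum of 300 were Pisd-ps2 and Entpd4, at 299.8 and 299.9, and just inside Pgd and 1500017E21Rik, at 300.2.

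Named genes were the 10 lowest and 10 highest called ratios without predicted or clone names, 23 fixed genes, and the extremes of each of 19 gene lists with 391 genes. Other genes were named after their values were seen. Of the genes that the rule names, 2 are not reported here. The comparison, members and lists were chosen with earlier results of these data known. Alternatives were other scalings, minimum counts, a 1.5-fold limit, fragment intervals, regions without overlap, a prior count of 5 and another ranking library. Python 3.11.15, numpy 2.4.6, pandas 2.3.3, scipy 1.17.1 and edgeR 4.0.16 (TMM factors only) were used.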

Additional observations from a re-analysis of the deposited data

How the results depend on the processing

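The median log2 ratio of the densest decile was below 0 under every alternative run, from -0.39 to -0.22, against -0.27 as reported. That of the least dense decile (0.08) was 0.11 with TMM factors and with factors from D544R and WT alone, which gave -0.24 for the densest. With silent genes as the reference the medians were -0.046 and -0.39 and the calls 35 lower and 16 higher. With the very long genes, a reference chosen after seeing the data, they were -0.037 and -0.38, with 32 and 18. Calls otherwise followed the minimum count. A mean of at least 100 gave 327 lower and 472 higher (densest decile -0.25), 1000 gave 0 and 2 (least dense 0.12), and no minimum gave 3005 and 3345 (0.13 and -0.22). A 1.5-fold limit gave 238 and 245. Factors over all 6 libraries gave 8 and 19, because their scale left 4265 genes at 300 or more. Rescaling them to the 3 H3K79me3 libraries, chosen after seeing this, gave 15 and 34. The densest decile was -0.24 without overlapping regions and -0.25 when ranked by the D544R H3K79me2 library. Other causes were not tested. Over all alternatives, 26 of the values for the 2 counts of calls and the 2 decile medians stayed near those reported and 28 did not. For named genes 553 stayed within counting error and 31 did not, and for lists 188 and 16. No called ratio of the named genes changed sign. The largest shift of the median ratio by a scaling was -0.12, far short of a 2-fold ratio, so no scaling could have changed one. No paired analysis was possible because each group has 1 library, and leaving out a replicate was not possible for the same reason. At this depth most single genes with a mean near 300 cannot show a difference under about 0.68 on the log2 scale, the median half-width of their fragment intervals.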

Other observations

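Gene families grouped by the start of their symbols, looked up after values were seen, gave small differences. Summed over 71 protocadherin genes, adhesion molecules of neurons, H3K79me3 counts were 37511 for WT and 39482 for D544R (log2 ratio 0.25, fragment interval 0.18 to 0.31), with 0.05 in H3K79me2. The clustered members share long regions, so reads enter this sum several times and the interval is too narrow. For 1122 olfactory receptor genes, silent in blood cells, the log2 ratio of sums was 0.12 (0.03 to 0.20), and for 337 vomeronasal receptor genes 0.05 (-0.03 to 0.13). For 366 zinc finger genes of the Zfp series, which are densely marked relative to these, it was -0.08 (-0.12 to -0.03). WT densities were 6.70 normalised H3K79me3 counts per kb for the Zfp genes, 5.39 for olfactory receptors and 4.11 for protocadherins. The sums are on the size factors of the report, and the silent and very long references lower them by about 0.12.

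Interferon response genes, of which only the RNA sensor Ifih1 reached a mean of 300 (280 counts in WT, 377 in D544R, log2 ratio 0.60, interval -0.10 to 1.33), summed over 22 genes to 2370 counts for WT and 2607 for D544R (log2 ratio 0.31, 0.06 to 0.56). MYC and ribosome assembly genes summed to 4885 and 3360 over 20 genes, a log2 ratio of -0.37 (-0.56 to -0.18), with -0.05 in H3K79me2. Both sums are made mostly of genes below the minimum of 300.

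By chromosome, the median log2 ratio ran from -0.09 on chromosome 4 (318 genes) to 0.11 on chromosome 18 (210 genes), with H3K79me2 medians of -0.01 and -0.04 there. Neighbouring genes within 50 kb of each other had a Spearman's rho of 0.01 over 1019 pairs, which share the libraries. Genes on the plus strand had a median of -0.01 (1937 genes) and those on the minus strand -0.03 (1923 genes).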
